A study of Homo sapiens with 3 samples.

Results

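The WNT and beta-catenin pathway was examined in 10 genes for occupancy by CHD8 and TRRAP: the receptor gene LRP6, the destruction complex genes AXIN1, APC and GSK3B, the nuclear effector genes CTNNB1, TCF7L1 and TCF7L2, and the feedback targets AXIN2, LEF1 and TCF7. They were chosen by name as 10 of 20033 protein-coding genes, 7 as core genes and 3 as feedback targets. Every peak from 5 kb upstream of a gene to its end was taken, in the GENCODE 44 annotation of GRCh38. These windows held 31 of 23393 CHD8 peaks and 25 of 14735 TRRAP peaks.

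The cells were wild-type human neural stem cells (hNSCs) made from the embryonic stem cell line H9 and were grown with EGF and FGF at 20 ng/ml each. Chromatin was fixed with 2 mM disuccinimidyl glutarate and then 1% formaldehyde, and sheared by 14 sonication cycles. One group was precipitated with an antibody to CHD8 and the other with an antibody to TRRAP, with 1 library each and no replicate. The IgG library was not analysed here. No WNT ligand or pathway inhibitor is named in the labels. The neural stem cell genes SOX2, NES and PAX6 all had promoter peaks of both proteins, as had 34.0% of all protein-coding genes. RNA levels were not part of the data.

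In canonical WNT signalling, a ligand that binds a Frizzled receptor and its co-receptor LRP6 stops the destruction complex from marking beta-catenin for degradation. In that complex the scaffolds AXIN1 and APC hold beta-catenin for phosphorylation by GSK3B. Stabilised beta-catenin, the product of CTNNB1, enters the nucleus and binds the TCF/LEF proteins, whose genes are TCF7, TCF7L1, TCF7L2 and LEF1, and AXIN2 is transcribed as a negative feedback. In the developing brain the pathway is known for its part in the proliferation and regional identity of neural stem cells. CHD8, a chromatin remodeler, is known to bind beta-catenin, and TRRAP is a scaffold of histone acetyltransferase complexes.

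The fold of a peak is the authors' deposited ratio of the signal at its summit to the background of the peak caller. All 56 peaks in the windows had a fold and a significance that were met by a whole number of DNA fragments at the summit, with 1 background value for all peaks of a list. The fold therefore carries no local background. Intervals beside a fold are exact Poisson 95% intervals of that fragment number and cover counting error only. Overlap of intervals does not show that folds are equal, and no test between folds was made. The CHD8 list had a median of 20 fragments per peak and a lowest of 10, and the TRRAP list a median of 16 and a lowest of 9. Folds are set side by side only within their own list.

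A promoter was the 1 kb on each side of the start of the canonical transcript. CHD8 had a promoter peak at 8 of the 10 genes (80%, Wilson 95% interval 49.0 to 94.3), against 55.9% of all protein-coding genes. TRRAP had one at 8 of the 10 genes as well, against 34.9% of all genes. The promoters of 7 genes (70%, 39.7 to 89.2) carried both proteins, against 34.0% of all genes. Those 7 were LRP6, GSK3B, CTNNB1, TCF7L1, TCF7L2, AXIN2 and LEF1. APC had CHD8 without TRRAP, AXIN1 had TRRAP without CHD8, and TCF7 had neither. The observed over expected CpG ratio at the starts was 0.561 in APC and 0.720 in TCF7L2, in the lower deciles 4 and 5, and 0.757 to 0.966 in the other 8 genes, in deciles 6 to 10. Among the 10016 genes in the 5 upper deciles of this ratio, 80.5% had a CHD8 promoter peak, 55.0% a TRRAP promoter peak and 53.7% both.

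**Figure D1:**
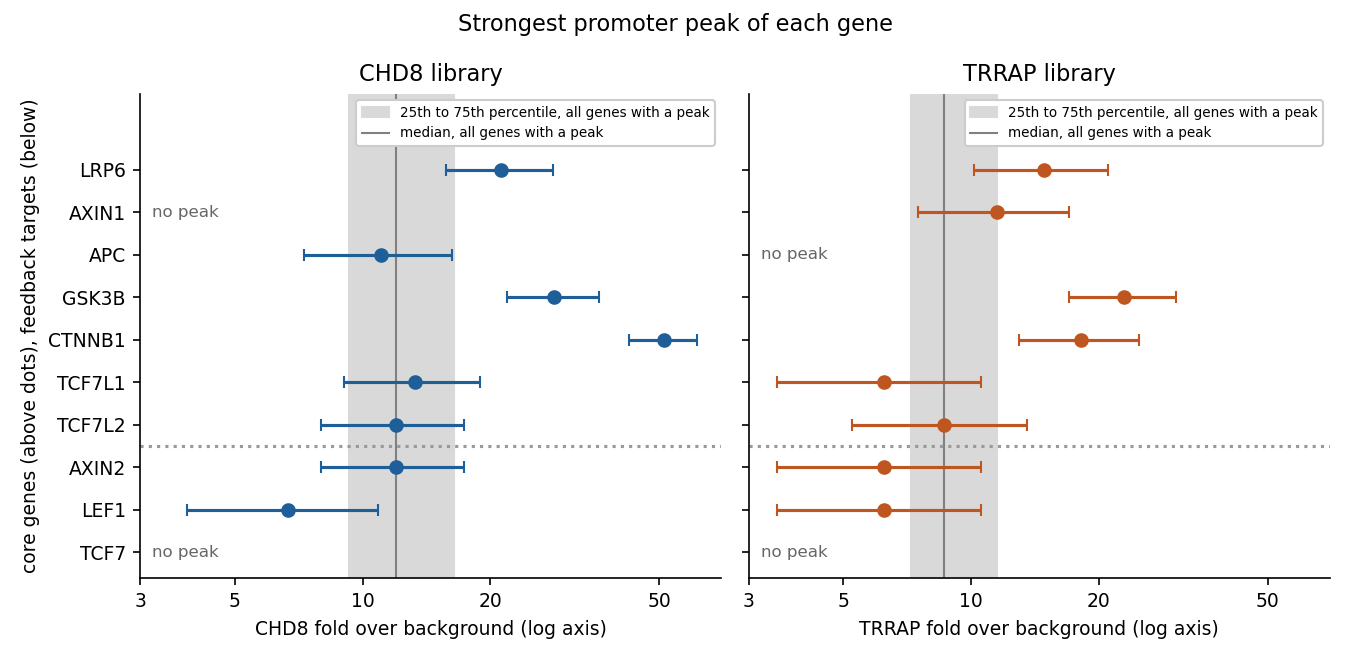
Fold of the strongest promoter peak of each gene in the CHD8 library (left) and the TRRAP library (right), on log axes, with exact Poisson 95% intervals as bars. The grey band and line give the 25th to 75th percentile and the median of all genes with a promoter peak, and CTNNB1 at 51.3 in the CHD8 library lies far to the right of the band.

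LRP6, the co-receptor for WNT ligands (chr12:12116025-12267044, minus strand), carried overlapping peaks of both proteins at its start. The CHD8 peak (chr12:12266422-12267546) had a fold of 21.2 (15.7 to 28.1; 47 fragments) with its summit 65 bp downstream of the start. The TRRAP peak had a fold of 14.9 (10.2 to 21.0; 30 fragments) with its summit at 82 bp, 17 bp from that of CHD8. The CHD8 peak was stronger than 86.8% of the genes with a CHD8 promoter peak, and the TRRAP peak stronger than 87.4% of those with TRRAP. A weaker TRRAP summit of fold 8.65 lay 229 bp upstream. LRP6 had 0 peaks of either protein elsewhere in its 151 kb.

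AXIN1, a scaffold of the destruction complex (chr16:287440-352723, minus strand), was occupied by TRRAP alone. Its single TRRAP peak (chr16:353132-353294) had a fold of 11.5 (7.49 to 17.0; 23 fragments). Its summit lay 473 bp upstream, and it was stronger than 73.4% of the genes with a TRRAP promoter peak. The nearest CHD8 summit was 17898 bp from the start. The AXIN1 start lay in the highest decile of CpG ratio, in which 86.1% of genes had a CHD8 promoter peak. The sequence at the TRRAP summit is shown because it is the one member promoter with TRRAP and no CHD8. It is the GRCh38 sequence on the sense strand of the gene, and the capitals mark a GC box.
AXIN1, TRRAP summit at -473, chr16:353136-353256, minus strand: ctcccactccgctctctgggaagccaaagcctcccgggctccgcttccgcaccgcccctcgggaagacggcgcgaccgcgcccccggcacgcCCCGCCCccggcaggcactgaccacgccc

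APC, a tumour suppressor scaffold of the same complex (chr5:112707518-112846239, plus strand), had CHD8 and no TRRAP peak in its window. Its canonical start lay in decile 4 of the CpG ratio. In that decile 57.0% of genes had a CHD8 promoter peak, 25.7% a TRRAP promoter peak and 24.7% both. APC has start sites about 30 kb apart, and CHD8 was present at both ends of that stretch. At the canonical start the CHD8 peak (chr5:112737646-112738347) had a fold of 11.1 (7.27 to 16.3; 24 fragments) and its summit at 54 bp. At the upstream start the peak (chr5:112707301-112708098) had a fold of 19.5 (14.2 to 26.1; 43 fragments), with the summit 20 bp from an annotated APC start and 30343 bp upstream of the canonical one. The upstream fold was the higher of the pair, but the counting intervals overlapped.

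GSK3B, a kinase of the complex (chr3:119821321-120094994, minus strand), carried several peaks of each protein on both sides of its start. CHD8 had summits at 493 bp downstream with a fold of 28.3 (21.9 to 36.1; 63 fragments) and at 1254 bp upstream with a fold of 17.3 (12.4 to 23.5). The strongest TRRAP peak lay at the upstream site, with a fold of 23.0 (17.0 to 30.4; 47 fragments) and its summit 1209 bp upstream. That is 26 bp from the start of GSK3B-DT, a divergent long non-coding RNA, and outside the 1 kb window, which the peak itself overlapped. With the summit required inside the window, GSK3B still had TRRAP, through summits at 67 bp (fold 8.65), 355 bp (7.69) and 636 bp upstream (6.26). The CHD8 and TRRAP maxima of GSK3B were thus on opposite sides of the start, but the counting intervals of the CHD8 folds at these sites overlapped. For TRRAP, the interval at the upstream maximum did not overlap that of the summit at 67 bp (5.26 to 13.5). A further CHD8 peak of fold 7.98 lay 90265 bp into intron 1, without TRRAP. The sequence at the TRRAP maximum is printed because the largest TRRAP fold of the 10 genes was there, and its capitals mark a GC box.
GSK3B, TRRAP summit at -1209, chr3:120095596-120095716, minus strand: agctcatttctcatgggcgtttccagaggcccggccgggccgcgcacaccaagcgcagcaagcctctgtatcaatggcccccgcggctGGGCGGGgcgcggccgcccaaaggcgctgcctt

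CTNNB1, which encodes beta-catenin (chr3:41194741-41260096, plus strand), had the strongest CHD8 peak of the 10 genes. The CHD8 peak (chr3:41198756-41200150) had a fold of 51.3 (42.4 to 61.5; 115 fragments) with its summit 44 bp upstream of the canonical start, and it ranked 110 in the list of 23393. Of the 11208 genes with a CHD8 promoter peak, 57 had a stronger one. TRRAP had 1 peak there (chr3:41199283-41199641), with a fold of 18.2 (13.0 to 24.9; 37 fragments), its summit 22 bp from that of CHD8 and 491 genes with a stronger TRRAP promoter peak. The interval of the CHD8 fold did not overlap that of GSK3B, the member next below. The summits themselves lie too near annotated untranslated exons to be printed, so the stretch just upstream is shown, from 237 to 117 bp before the start. That stretch holds none of the searched words, but 1 GC box lay within 100 bp of each of the summits.
CTNNB1, beside the CHD8 summit at -44, chr3:41199268-41199388, plus strand: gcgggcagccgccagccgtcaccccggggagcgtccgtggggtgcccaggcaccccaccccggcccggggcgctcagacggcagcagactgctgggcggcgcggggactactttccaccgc

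A pair of weak CHD8 peaks without TRRAP completed the CTNNB1 window. One had a fold of 7.54 (16 fragments) at 1436 bp in intron 1, and the other a fold of 8.43 (18 fragments) at 48203 bp, past the end of the canonical transcript but within the annotated span of the gene. Both hold a word that TCF/LEF proteins are known to bind.

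TCF7L1, a TCF/LEF family member known mainly as a repressor (chr2:85133392-85310387, plus strand), had its highest TRRAP fold inside the gene. At the promoter CHD8 had a fold of 13.3 (9.06 to 18.9; 29 fragments) at 156 bp upstream, and TRRAP had summits of fold 6.26 (3.49 to 10.5; 12 fragments) at 37 and 361 bp upstream. In intron 3, 56 kb from the start, overlapping peaks had a CHD8 fold of 13.7 (9.42 to 19.4; 30 fragments) and a TRRAP fold of 19.6 (14.2 to 26.6; 40 fragments). The TRRAP peak ranked 794 in its list of 14735, and its interval did not overlap that of the TRRAP promoter peaks of the gene. The CHD8 folds at the intronic site and the promoter, 13.7 and 13.3, had overlapping intervals. The intronic site is 3375 bp from the nearest start of another gene, the intronic transcript TCF7L1-IT1. Its sequence is shown because it is the strongest TRRAP site of the 10 genes away from a start, and it holds none of the searched words within 60 bp of the summit.
TCF7L1, TRRAP summit at +56392, chr2:85189724-85189844, plus strand: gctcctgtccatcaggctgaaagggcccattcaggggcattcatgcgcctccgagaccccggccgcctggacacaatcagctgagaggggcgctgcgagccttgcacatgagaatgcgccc

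TCF7L1 had 6 CHD8 and 5 TRRAP peaks outside its promoter, all in intron 3. All 5 TRRAP peaks overlapped CHD8, with CHD8 summits at 56452, 82487, 101762 and 122597 bp. The other CHD8 peaks, at 1118 bp (fold 7.10) and 125816 bp (6.66), had no TRRAP. The CHD8 folds of the shared sites beyond the first ranged from 7.98 to 10.6 and the TRRAP folds from 5.78 to 7.69. The site at 56 kb was thus the only one of these with a TRRAP fold above the list median of 8.17.

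TCF7L2, the TCF/LEF family member best known for its association with type 2 diabetes (chr10:112950247-113167678, plus strand), had both proteins only near its start. CHD8 had a fold of 12.0 (7.98 to 17.3; 26 fragments) at 222 bp upstream and 9.31 at 98 bp downstream, and TRRAP a fold of 8.65 (5.26 to 13.5; 17 fragments) at 178 bp upstream. A further cluster lay at exon 3, which is coding, and in intron 3, with CHD8 at 1354 bp (fold 12.8; 28 fragments) and TRRAP at 1533 and 1781 bp (7.21 and 9.60). The summits of that cluster were 95 to 274 bp from the start of an annotated long non-coding RNA. Farther in, CHD8 alone had peaks at 77756, 158320 and 176494 bp, with folds of 6.22, 8.87 and 6.66. The last of these lay 51 bp from the annotated start of a shorter protein-coding TCF7L2 transcript, and it counts as outside the promoter of the canonical one.

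AXIN2, a scaffold like AXIN1 and a transcriptional target of the pathway (chr17:65528563-65561648, minus strand), carried a row of small peaks. CHD8 had 7 peaks, with summits at 109 bp upstream and at 506, 897, 1243, 1599, 15386 and 30007 bp downstream. Their folds were 12.0 (7.98 to 17.3; 26 fragments), 9.31, 8.43, 8.87, 6.22, 10.2 and 9.31, in that order. TRRAP had 4 peaks, at 128 bp upstream and at 816, 1325 and 15308 bp downstream, with folds of 5.78, 6.26, 7.21 and 6.74. Each TRRAP peak overlapped a CHD8 peak, and the summits of those pairs were 19 to 82 bp apart. No fold of the row stood apart from the others by its counting interval.

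**Figure D2:**
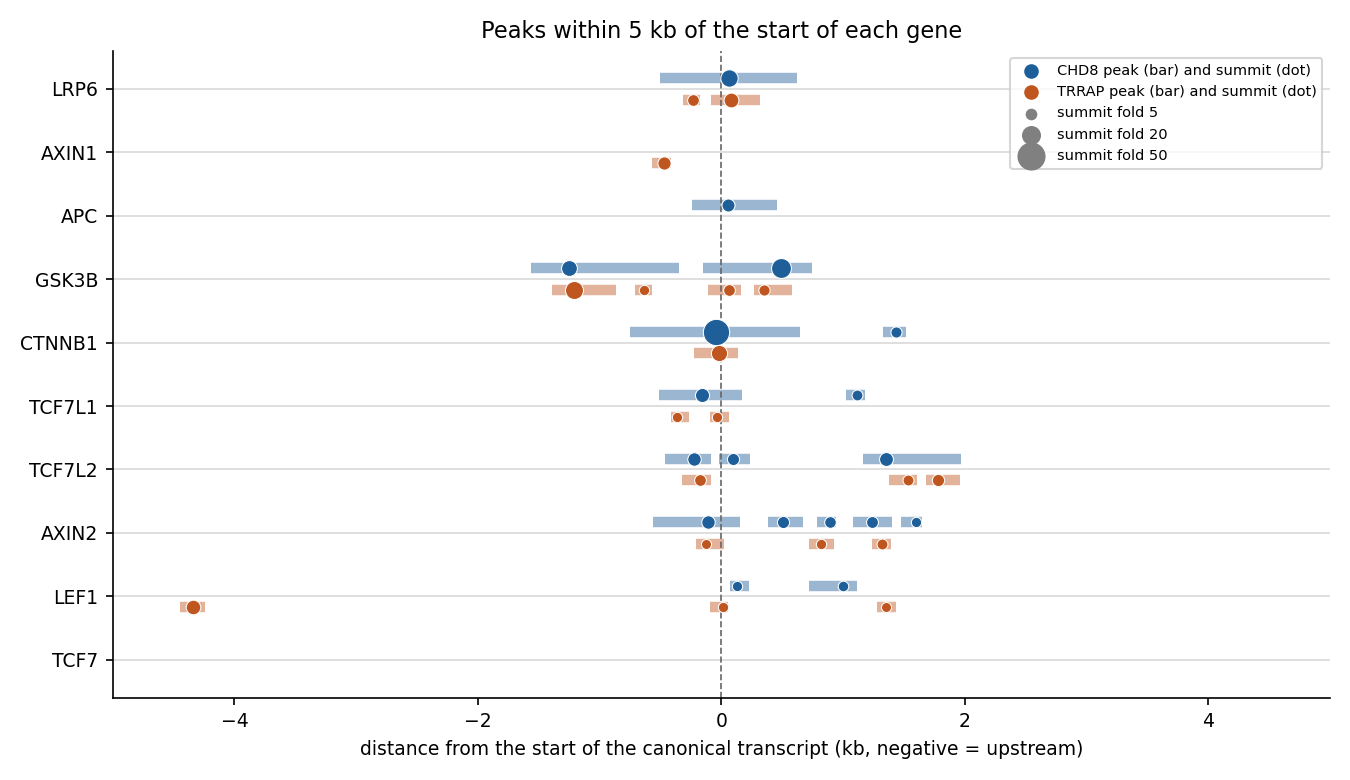
Peaks within 5 kb of the start of each gene, plotted by distance from the canonical start in kb. Bars span the peaks and dots mark the summits, with dot area growing with the fold. AXIN2 shows 5 CHD8 peaks in a row, while CTNNB1 shows 1 broad peak at its start and a weak one 1436 bp downstream.

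The sequences under the AXIN2 peaks are shown because 3 of them hold TCF/LEF words, the letters that the TCF/LEF proteins are known to bind. All are from GRCh38 on the sense strand of AXIN2, and the capitals mark searched words. At the summit 109 bp upstream the capitals are GC boxes, the last pair overlapping, and at the other summits they are TCF/LEF words.
AXIN2, CHD8 summit at -109, chr17:65561697-65561817, minus strand: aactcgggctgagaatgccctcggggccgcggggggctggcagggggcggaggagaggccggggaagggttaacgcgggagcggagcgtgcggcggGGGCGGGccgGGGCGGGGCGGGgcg
AXIN2, beside the CHD8 summit at +506, chr17:65561192-65561266, minus strand: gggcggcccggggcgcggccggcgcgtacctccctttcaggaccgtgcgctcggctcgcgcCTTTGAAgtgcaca
AXIN2, CHD8 summit at +897, chr17:65560691-65560811, minus strand: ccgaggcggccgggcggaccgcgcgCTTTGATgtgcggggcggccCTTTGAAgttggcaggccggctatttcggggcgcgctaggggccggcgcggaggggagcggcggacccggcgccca
AXIN2, CHD8 summit at +15386, chr17:65546202-65546322, minus strand: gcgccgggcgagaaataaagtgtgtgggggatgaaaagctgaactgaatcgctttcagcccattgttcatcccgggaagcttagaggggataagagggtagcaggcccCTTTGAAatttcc

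The summit at 897 bp thus has CTTTGAT and CTTTGAA within 60 bp, and the TRRAP peak at 816 bp covers the same pair. The stretch at 506 bp and the intronic site at 15386 bp have 1 CTTTGAA each.

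LEF1, a TCF/LEF gene that is itself induced by the pathway (chr4:108047545-108168956, minus strand), had weak peaks at its start, and none of the CHD8 peaks overlapped a TRRAP peak. CHD8 had folds of 6.22 (3.53 to 10.3; 13 fragments) at 131 bp and 6.66 (3.85 to 10.9; 14 fragments) at 997 bp, and TRRAP had folds of 6.26 (3.49 to 10.5; 12 fragments) at 12 bp and, outside the promoter, 5.78 (11 fragments) at 1356 bp. The gap was small at the start, where the CHD8 peak ended at position 108168860 and the TRRAP peak began at 108168873. Of the genes with a promoter peak, 4.80% ranked lower in CHD8 and 7.80% in TRRAP, where genes at the same fold were ordered by peak width. The strongest TRRAP peak of the LEF1 window was one without CHD8 (chr4:108173170-108173375), 4340 bp upstream. It had a fold of 14.4 (9.80 to 20.4; 29 fragments) and lay 68 bp from a start of LEF1-AS1, the antisense long non-coding RNA. Its sequence is given because no CHD8 peak overlapped this site, and the capitals mark a GC box.
LEF1, TRRAP summit at -4340, chr4:108173212-108173332, minus strand: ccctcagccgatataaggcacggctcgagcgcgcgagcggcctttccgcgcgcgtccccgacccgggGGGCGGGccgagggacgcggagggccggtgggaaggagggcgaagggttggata

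TCF7, a TCF/LEF gene and pathway target (chr5:134114681-134151865, plus strand), had no peak of either protein in its window. The nearest CHD8 summit was 12817 bp from the start (fold 6.22) and the nearest TRRAP summit 62622 bp (fold 8.17). The CpG ratio of its start was 0.944, in the highest decile, where 86.1% of genes had CHD8 and 67.6% had TRRAP. A site below the peak caller's threshold would not be listed, so the absence is of a listed peak.

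The order of the strongest CHD8 promoter folds was CTNNB1, GSK3B, LRP6, TCF7L1, then TCF7L2 and AXIN2 at the same fold, APC and LEF1. CTNNB1 was the only one whose interval was clear of its neighbour in that order. The order for TRRAP was GSK3B, CTNNB1, LRP6, AXIN1, TCF7L2, then TCF7L1, AXIN2 and LEF1 at the same fold of 6.26. No neighbours in the TRRAP order differed beyond their intervals, while CTNNB1, with a lower bound of 13.0, was clear of the 3 genes at 6.26, with an upper bound of 10.5. GSK3B led by the peak beside GSK3B-DT, and with the summit required inside the promoter window its TRRAP fold was 8.65, the same as that of TCF7L2.

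**Figure D3:**
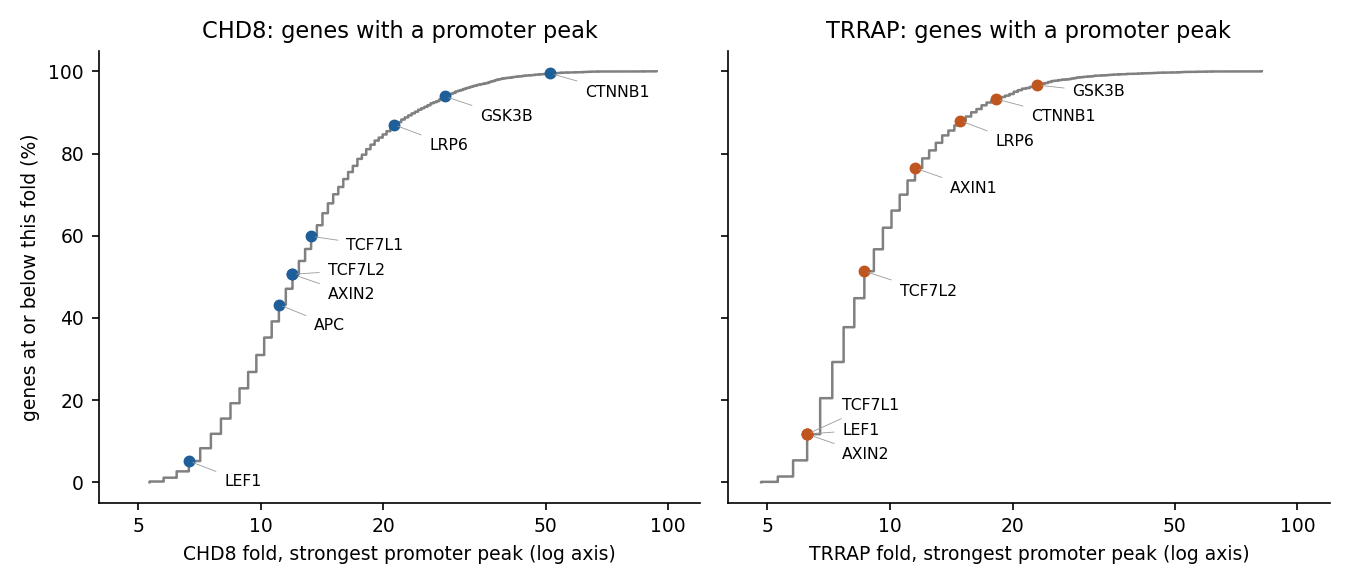
Cumulative share (%) of genes by the fold of their strongest promoter peak (log axis), for CHD8 (left) and TRRAP (right), with the WNT pathway genes as dots at the same curve. CTNNB1, GSK3B and LRP6 lie in the upper part of both curves and LEF1 near the foot of both. AXIN2 is near the middle for CHD8 and near the foot for TRRAP.

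Between the classes, CHD8 promoter peaks were present at 6 of 7 core genes and 2 of 3 feedback targets, and TRRAP gave the same counts. With genes without a peak ranked lowest, the median CHD8 fold was 13.3 in the core genes and 6.66 in the feedback targets, and the median TRRAP fold was 11.5 and 6.26. Core genes with a CHD8 peak ranged from 11.1 to 51.3 and feedback targets from 6.66 to 12.0, so the classes overlapped. For TRRAP the core genes ranged from 6.26 to 23.0, and both feedback targets with a peak were at 6.26. With the TRRAP summit required inside the window, a rule added after seeing the data, the core median was 8.65 and the feedback median stayed at 6.26. The CpG ratio spanned 0.561 to 0.966 in the core genes and 0.757 to 0.944 in the feedback targets. With 3 genes in the smaller class and 1 library per antibody, no test was made of this difference. The CHD8 difference moved with the definition: it was -6.63 as described, -3.31 with TCF7 counted as a core gene, and -12.8 when the starts of all transcripts were used.

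Across the whole windows, 8 of the 10 genes had any CHD8 peak, against 64.1% of all genes, and 8 had any TRRAP peak, against 43.3%. Outside the promoter, 6 genes had a CHD8 peak (60%, 31.3 to 83.2), against 24.3% of all genes, and 4 had a TRRAP peak (40%, 16.8 to 68.7), against 15.2%. Longer genes have more room for such peaks. Among the 8059 genes of 33.1 to 273.7 kb, the length range of the members, 31.3% had CHD8 and 19.7% TRRAP outside the promoter. Peaks outside promoters numbered 18 for CHD8 and 11 for TRRAP, or 1.35 and 0.827 per 100 kb of gene window, the 5 kb upstream included, against 0.582 and 0.323 over all genes. TCF7L1 alone held 6 of the 18 and 5 of the 11, and AXIN2 and TCF7L2 held 4 CHD8 peaks each. Of these peaks, 7 of CHD8 and 3 of TRRAP had a summit within 1 kb of another annotated start of the same gene. The counts are therefore those of a few genes, and LRP6, AXIN1 and TCF7 had none.

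**Figure D4:**
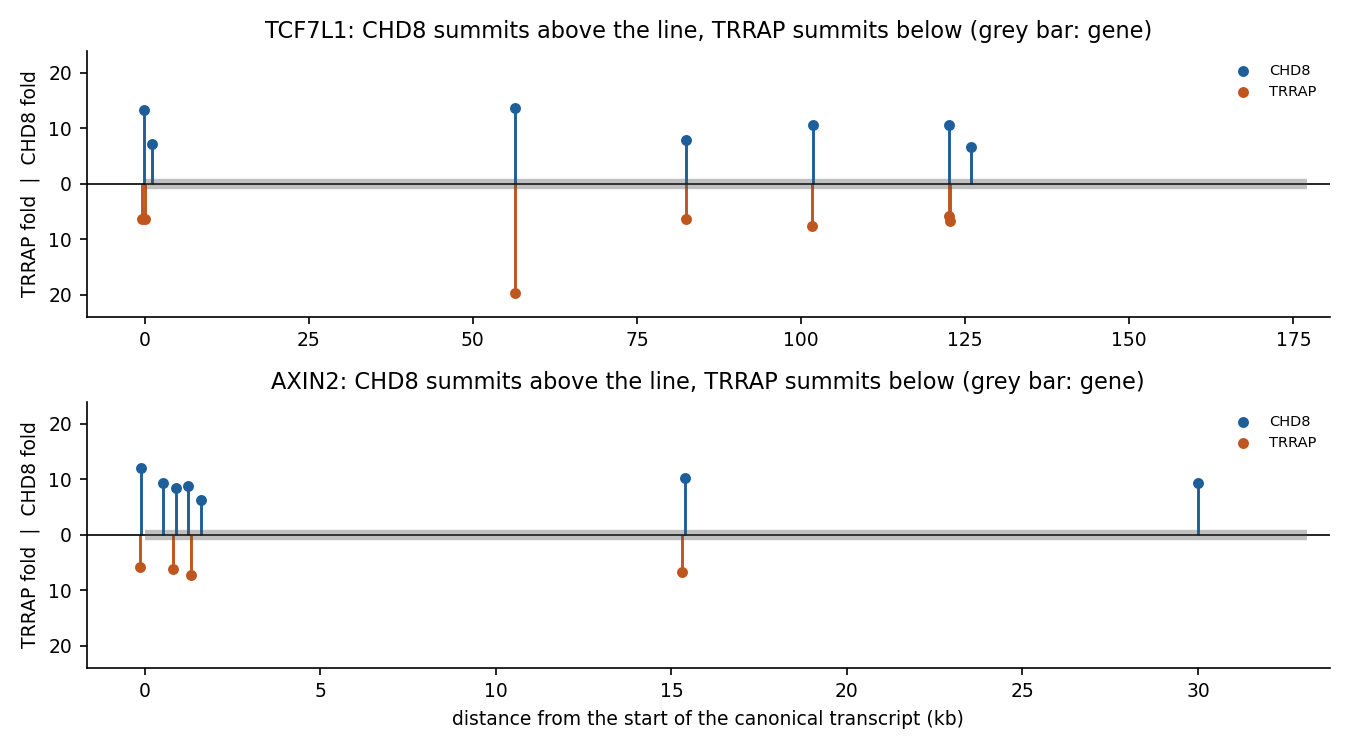
Fold of every CHD8 summit (above the line) and TRRAP summit (below the line) along TCF7L1 and AXIN2, by distance from the canonical start in kb, with the gene as a grey bar. The highest TRRAP fold of TCF7L1, 19.6, is inside the gene at 56 kb, while AXIN2 shows its row of peaks at the start and 1 shared site at 15 kb.

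Of the 25 TRRAP peaks in the windows, 21 overlapped a CHD8 peak (84.0%, 65.4 to 93.6), against 90.1% in the windows of all genes. The 4 that did not were the AXIN1 promoter peak and the 3 TRRAP peaks of LEF1. Of the 31 CHD8 peaks, 15 overlapped TRRAP (48.4%), against 48.0% in all gene windows. Summit spacing in those 15 peaks had a median of 78 bp (17 to 179 bp), against 66 bp over 11078 CHD8 peaks on the main chromosomes. It was within 100 bp in 12 of the 15 (80%), against 63.9% of all. With a CHD8 summit within 200 bp required in place of overlap, 68% of the 25 TRRAP peaks were shared, against 66.6% in the windows of all genes.

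TCF/LEF proteins bind the word CTTTGAA or the close relative CTTTGAT, and with them the word CTTTGTA and the word CTTTGTT were searched, on both strands and within 100 bp of a summit. At least 1 of these 4 words was in 11 of the 56 peaks. They were 3 of the 13 CHD8 promoter peaks (5.29% of all CHD8 promoter peaks), 5 of the 18 other CHD8 peaks (15.6% of all), 2 of the 14 TRRAP promoter peaks (5.89%) and 1 of the 11 other TRRAP peaks (14.9%). In windows of 201 bases centred on all gene starts the share was 5.81%. Of the 3 CHD8 promoter peaks with a word, 2 were those of AXIN2 at 506 and 897 bp, and the third was that of TCF7L2 at 98 bp. Both TRRAP promoter peaks with a word, AXIN2 at 816 bp and GSK3B at 1209 bp upstream, overlapped CHD8. The same letters were counted for both proteins in AXIN2 (897 and 816 bp) and in TCF7L1 (82487 and 82428 bp). The 11 peaks are therefore fewer separate sites. The CTNNB1 and TCF7L1 sites outside the promoters are printed here to set beside those of AXIN2, with the TCF/LEF word in capitals, which in CTNNB1 is on the opposite strand.
CTNNB1, CHD8 summit at +48203, chr3:41247648-41247768, plus strand: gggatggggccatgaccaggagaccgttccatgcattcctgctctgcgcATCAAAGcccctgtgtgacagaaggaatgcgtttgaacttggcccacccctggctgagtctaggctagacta
TCF7L1, TRRAP summit at +82428, chr2:85215760-85215880, plus strand: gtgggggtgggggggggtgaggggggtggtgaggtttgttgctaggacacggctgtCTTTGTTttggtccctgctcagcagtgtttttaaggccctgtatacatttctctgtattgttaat

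Other words were searched in the same way: the E-box CACGTG, the ETS word CCGGAAGT, the YY1 word AAGATGGC, CCAAT, the GC box GGGCGGG and the E2F word TTTCCCGC, of which the last pair can share letters. GC boxes were the most common, in 6 of 13 CHD8 promoter peaks (39.9% of all) and 6 of 14 TRRAP promoter peaks (47.3% of all). The ETS word was in 0 of the 56 peaks, and the YY1 word in 1, the upstream APC peak. The E-box, bound by MYC, was in 1 member peak, that of CHD8 at the canonical APC start. A match describes letters only, and sites that differ from a word by a base are missed.

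The other genes of the pathway were taken from a list of 99 genes by role, which includes the members. Of these, 60 had a CHD8 promoter peak (60.6%, 50.8 to 69.7), 43 a TRRAP promoter peak (43.4%, 34.1 to 53.3) and 40 both. Without the members the counts were 52, 35 and 33 of 89. The CHD8 share of the 89 other genes, 58.4%, was near the 55.9% of all genes, and their TRRAP share, 39.3%, near the 34.9% of all genes.

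**Figure D5:**
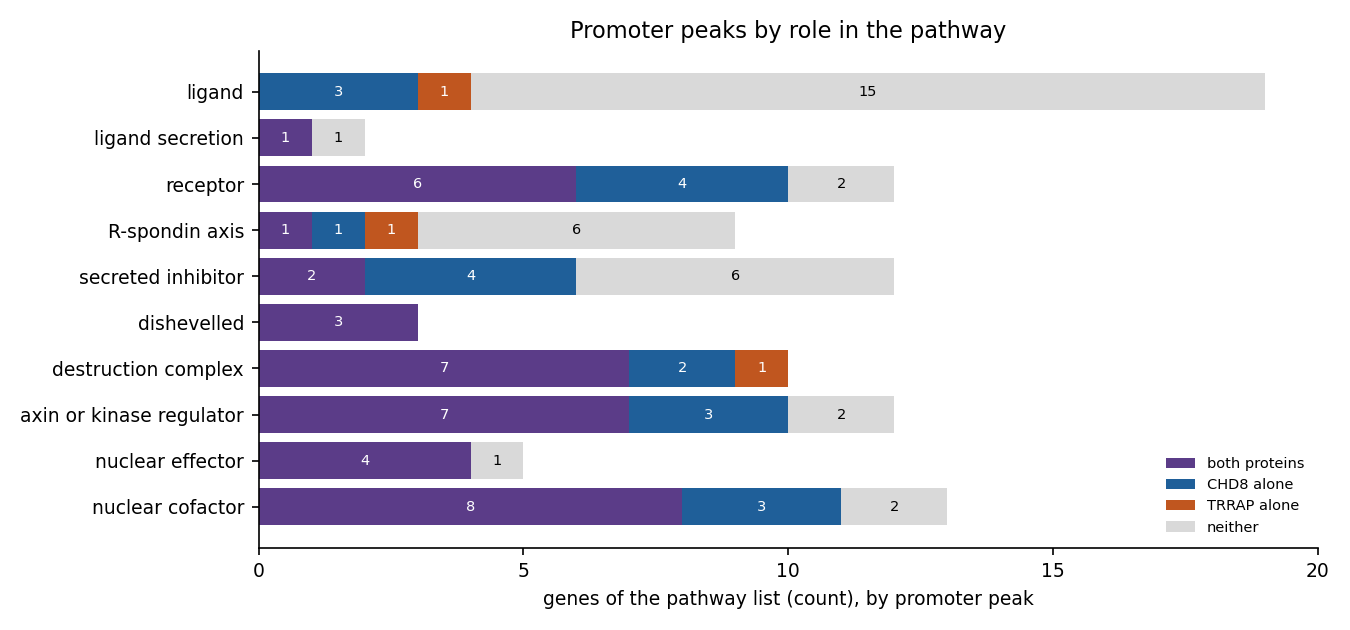
Number of genes in each role of the pathway list by promoter peaks of both proteins, CHD8 alone, TRRAP alone or neither; CCND1 and SP5, listed as targets only, are not drawn. Most of the 19 ligand genes have neither peak, and each of the 10 destruction complex genes has at least 1.

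Shares are given by role, beside the 55.9% (CHD8) and 34.9% (TRRAP) of all genes and the 80.5% and 55.0% of genes in CpG deciles 6 to 10, and no test was made between roles. Within a role, genes with both proteins are named in the order of their CHD8 fold. Among the 19 WNT ligand genes, 3 had CHD8 (15.8%, 5.52 to 37.6), 1 had TRRAP and 0 had both. They were WNT5A (CHD8 fold 10.2), WNT3 (7.98) and WNT9A (7.54), and WNT7A with TRRAP (8.17). The WNT5A summit lay 1043 bp downstream, outside the 1 kb window that its peak overlapped. The ligand genes had a median CpG ratio of 0.816, the same as that of the whole list. For the roles that follow, the median ratio was 0.884 in receptors, 0.913 in dishevelled genes and 0.828 in the destruction complex. It was 0.848 in regulators of that complex, 0.894 in cofactors and 0.818 in targets, so that all of these medians lay in deciles 7 to 9. Lower medians were those of ligand secretion (0.652, decile 4), the R-spondin axis (0.763, decile 6) and secreted inhibitors (0.746, decile 6). Of 2 genes for ligand secretion, WLS, which carries ligands to the surface, had both proteins and PORCN, which acylates them, had neither. In the R-spondin axis of receptor turnover, 1 of 9 genes had both, the ubiquitin ligase gene ZNRF3 (CHD8 12.8, TRRAP 7.21). LGR4 had CHD8 alone (6.66), LGR5 had TRRAP alone (5.78) and the 4 R-spondin genes had neither.

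Of the 12 receptor genes, 10 had CHD8 (83.3%, 55.2 to 95.3) and 6 had both, led after LRP6 by FZD2 (CHD8 14.6, TRRAP 12.9) and FZD1 (13.3 and 10.6). LRP5, the paralog of LRP6, and FZD9 had neither. Secreted inhibitors had CHD8 at 6 and TRRAP at 2 of 12 genes, the latter being SFRP2 and DKK3. All 3 dishevelled genes, whose proteins relay the receptor signal, had both, with CHD8 folds of 12.8 in DVL2, 10.6 in DVL3 and 10.2 in DVL1.

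In the destruction complex, 9 of 10 genes had CHD8 (90%, 59.6 to 98.2), 8 had TRRAP and 7 had both. After GSK3B the leading genes were the casein kinase CSNK1A1 (CHD8 27.0, TRRAP 7.69) and GSK3A (17.7 and 8.65). Besides APC, the ubiquitin ligase gene FBXW11 had CHD8 (17.3) without TRRAP. Among regulators of axin and the kinases, 10 of 12 had CHD8 and 7 both, led by the tankyrase gene TNKS2 (21.7 and 11.0), CSNK1D (17.7 and 10.6) and RNF146 (14.2 and 10.6). TNKS had the same CHD8 fold as TNKS2 and no TRRAP peak, and NKD1 and NKD2 had neither protein. The highest TRRAP folds of this role were in CSNK1E (20.6) and FRAT2 (15.8), named after their values were seen.

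Nuclear cofactors of beta-catenin and TCF had CHD8 at 11 (84.6%, 57.8 to 95.7) and TRRAP at 8 of 13 genes. The acetyltransferase gene EP300 (CHD8 25.7, TRRAP 10.6), BCL9 (19.9 and 9.60) and PYGO2 (19.5 and 7.69) led those with both. TLE3 (22.6), CREBBP (12.0) and BCL9L (9.75) had CHD8 alone, and CTBP2 and TLE2 had neither. Of the 12 genes listed as pathway targets, feedback targets included, 6 had CHD8 (50%, 25.4 to 74.6), near the share of all genes, 5 had TRRAP and 4 both: CCND1 (13.3 and 5.30), ZNRF3, AXIN2 and LEF1. APCDD1 (11.5) and DKK1 (6.66) had CHD8 alone, and NKD1, NOTUM, RNF43, SP5 and TCF7 had neither.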

How the data were processed

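The data were 1 CHD8 and 1 TRRAP peak list from ChIP-seq of H9-derived neural stem cells. Per the submitters' processing notes, GRCh38, HISAT2 and MACS2 2.1.1.20160309 were used, with no role or order given. The control, filters and read totals are not given in the sources used here. The authors' deposited fold is a linear ratio at the summit, the deposited -log10 p and -log10 q are its significance, and the deposited score equals the -log10 q times 10, rounded down. The name of the CHD8 list gives a false discovery rate of 0.0001 and that of the TRRAP list 0.001. Of 84 and 88 sequence names, 25 per list matched GRCh38 with a prefix added (the main chromosomes and the mitochondrial genome), and 0 peaks there ran past an end. Peaks on the other 59 and 63 names enter only list totals, medians and ranks.

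Coordinates are counted from 1, and peaks overlap if they share 1 bp. Ranks follow -log10 q, then fold and width. The shares of genes with a weaker promoter peak, and the counts of stronger ones for CTNNB1, follow these ranks. Genes at the same fold are thus ordered by width. Fragment numbers were recovered from fold and -log10 p (tolerances 0.001 and 0.01) for 99.92% of CHD8 and 99.93% of TRRAP peaks. That recovery was tested on simulated data. All 56 summits were single-copy by 32-base words. CpG ratios used 500 bp on each side of a start. Wilson and Poisson intervals cover counting error only. With 1 library per antibody there is no test between conditions and no p-value. Alternatives covered promoter and gene windows, start sites, rank, q, overlap rule and word distance. Named pathway genes were all members, up to 3 genes per role with the highest CHD8 fold among those with both proteins, and genes of counts of 5 or fewer. The members and the lists were chosen with earlier results of these data known. Sequences were read from the GRCh38 reference outside annotated untranslated exons, and those printed were picked after values were seen. Tools were matplotlib 3.10.9, numba 0.67.0, pysam 0.24.0, pandas 2.3.3, scipy 1.17.1 and numpy 2.4.6 under Python 3.11.15.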

Additional observations from a re-analysis of the deposited data

How the results depend on the processing

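Of 35 alternatives, 26 kept the value, 9 moved it and 0 reversed it, where a count or difference is kept within 1.5 times and a share within its Wilson interval. Among those kept, the 25 TRRAP window peaks were 18 without the upstream stretch, and the 84% of TRRAP peaks shared with CHD8 was 68% by summits within 200 bp. The member promoters with CHD8, TRRAP and both stayed at 8, 8 and 7 with promoter half-widths of 500 and 2500 bp, with all transcript starts and with the summit inside the window. Keeping peaks above the median rank of their list left 7 genes with CHD8, 5 with TRRAP and 4 with both. The shares of all genes under that rule were 42.5%, 19.5% and 16.7%. In the member windows it left 14 of 31 CHD8 and 10 of 25 TRRAP peaks. Over the windows of all genes it left 9555 of 18201 and 5246 of 10981. TCF7L1, AXIN2 and LEF1 were the genes that lost TRRAP by that rule. The feedback minus core difference in median CHD8 fold, -6.63, was -3.315 with TCF7 as a core gene and -12.82 with all transcript starts. The TRRAP difference, -5.256, was -2.389 with the summit inside the promoter window, a setting added after seeing the data. Peaks with a TCF/LEF word numbered 22 in place of 11 with 250 bp on each side of the summit, and 17 over the whole peak. No paired analysis was possible because each antibody had 1 library. The median of 20 and 16 fragments per summit limits the precision of every fold, and weak peaks such as those at the LEF1 start rest on 11 to 14 fragments.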

Other observations

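The row of CHD8 peaks at AXIN2 is uncommon in the list. Within 2000 bp on each side of the start AXIN2 had 5 CHD8 peaks, and 23 of 20033 protein-coding genes (0.115%) had as many, with a highest count of 6 and a median of 1. For TRRAP, 346 genes (1.73%) had at least the 3 peaks of AXIN2. This count was chosen after the values were seen, and whether the peak caller divided a broader region into several peaks was not tested.

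AXIN1 belongs to a small set of genes. At 198 of 20033 protein-coding genes (0.988%) the promoter had TRRAP without CHD8, with a median TRRAP fold of 8.17, and 24 of them had a stronger TRRAP peak than AXIN1. This comparison was also chosen after the values were seen.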
